A study of Mus musculus with 2 samples.

Results

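Mir126a, Mir126b, Mir221, Mir222 and Mir139 are microRNA genes linked to blood vessels. They are 5 genes chosen by name. The files hold 1973 microRNA genes, among them an entry of their own for 4 of the 5. Mir126b has none, and the reads on its strand were taken from the opposite-strand counts at Mir126a, the gene it overlaps. The data came from the livers of 2 mouse pups of strain B6NCrl, one library each, taken at postnatal day 0. Both pups were born to one female, their sex was not collected, and the labels name no treatment and no mutant allele. The pups form a single group, so the data describe levels in newborn liver and the spread between littermates, with no second tissue, age or treatment to set them against.

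A microRNA is cut from a hairpin transcript and then pairs with messenger RNAs through its seed, the bases 2 to 8 of the mature strand, which lowers their translation and stability. miR-126 is the classic microRNA of the endothelium, the cells that line vessels and, in the liver, the sinusoids. It is made from the gene of the secreted endothelial protein Egfl7 and sustains VEGF signalling by repressing Spred1 and Pik3r2, which dampen that pathway. miR-221 and miR-222 are produced together and repress Kit, the receptor of stem cell factor, and Cdkn1b, an inhibitor of the cell cycle. They act in endothelium and smooth muscle and are known for their rise in liver cancer. miR-139 is made from the gene of the phosphodiesterase Pde2a and is known as a brake on migration and growth that is lost in liver cancer.

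The 8 mature strands that the RefSeq table holds for these genes are shown because the seeds tell which of them share a target class. The seed is in capitals. They are printed 5′ to 3′ for GRCm38.p6, the same assembly as mm10. All 5 genes matched at least 1 strand there; miR-126a-5p and miR-222-5p are named only.
miR-126a-3p: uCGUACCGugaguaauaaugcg
miR-126b-3p: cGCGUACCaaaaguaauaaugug
miR-126b-5p: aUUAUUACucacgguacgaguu
miR-221-3p: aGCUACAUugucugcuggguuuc
miR-221-5p: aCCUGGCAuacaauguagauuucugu
miR-222-3p: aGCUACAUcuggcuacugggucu
miR-139-5p: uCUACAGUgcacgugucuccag
miR-139-3p: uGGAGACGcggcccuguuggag

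miR-221-3p and miR-222-3p share the seed GCUACAU and are identical over their first 8 bases. Along the 23 bases, counted from the 5′ end, 11 positions hold the same base in both. The only other mature microRNA of the table with this seed is miR-1928, whose gene Mir1928 had 0 reads in both libraries. No other mature strand of the table has the seed of miR-126a-3p, of either strand of miR-126b or of either strand of miR-139. miR-139-5p has the stretch CUACA in common with miR-221-3p and miR-222-3p, but one base nearer its start, so the seeds differ.

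The hairpin of Mir126a is shown because Mir126b is read from its other strand. The capitals mark the 58 of 73 bases whose complement is the Mir126b hairpin.
Mir126a hairpin: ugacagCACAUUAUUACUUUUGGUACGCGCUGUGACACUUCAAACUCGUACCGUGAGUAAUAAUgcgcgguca
Mir126b hairpin: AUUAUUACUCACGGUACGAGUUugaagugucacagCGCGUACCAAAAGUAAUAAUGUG
In the Mir126b hairpin the capitals mark its mature strands. miR-126b-5p is complementary to miR-126a-3p over 19 bases in a row. A near-palindrome of this kind can form a hairpin from either strand. The minimum free energy predicted by RNAfold was -31.2 kcal/mol for the Mir126a hairpin and -19.3 kcal/mol for the shorter Mir126b hairpin. For the other hairpins it was -42.8 kcal/mol for Mir221, -40.7 kcal/mol for Mir222 and -35.6 kcal/mol for Mir139. Apart from each other, Mir126a and Mir126b shared no stretch of 20 bases with the 2200 other annotated microRNA hairpins searched on both strands, and Mir221, Mir222 and Mir139 shared none at all. Reads that map to several loci are on no gene in these files, so sequence shared with another hairpin, which lowers the counts of many microRNAs, was not found for these genes.

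Mir126a (ENSMUSG00000065540.1) lies on chromosome 2, 26591357 to 26591429 on the plus strand in mm10. Of the 9 Egfl7 transcripts in GENCODE M21 that span it, 8 hold it in an intron and 1, a transcript with a retained intron, holds it in an exon. The gene model Gm20532 spans it as well, with an intron. Mir126b (ENSMUSG00000105799.1) lies within it on the minus strand, at 26591363 to 26591420. Mir139 (ENSMUSG00000065446.1) lies on chromosome 7, 101475376 to 101475443 on the plus strand, in an intron of all 10 Pde2a transcripts that span it and of the overlapping gene model Gm45837. Mir221 (ENSMUSG00000065422.1, 19146294 to 19146388) and Mir222 (ENSMUSG00000065471.1, 19146893 to 19146971) lie on the minus strand of chromosome X, with Mir222 upstream and 504 bases between the hairpins. No annotated transcript other than their own covers them, and the nearest other gene, the non-coding Gm14636, lies 10010 bases from Mir222.

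Pup 1 gave 3422622 reads on the gene strand of microRNA genes and pup 2 gave 4538427. Levels are counts per 1000000 of these reads (CPM), not divided by hairpin length, because an insert below 30 bases is read as a single fragment of the hairpin. Each is given for both pups and as the mean ± SD (n = 2). Intervals are exact Clopper-Pearson intervals at 95%. They allow for counting error alone, and PCR copies of a molecule are counted as separate reads. The hepatocyte list (Mir122, Mir192, Mir194-2, Mir148a) was present in 4 of 4 genes with 35.8% and 36.9% of the reads of pup 1 and pup 2. The lists for other cells of the liver held far less. Mir143, Mir145a, Mir199a-2 and Mir214, of smooth muscle and stellate cells, summed to 1.50% and 1.58%. The erythroid Mir144, Mir451a and Mir486 summed to 0.531% and 0.515%, and the leukocyte Mir223, Mir150, Mir155 and Mir342 to 0.997% and 0.909%. No gene of these lists that has an entry was at 0. Mir142 of the leukocyte list has no entry, which lowers the leukocyte sums. The reads at its place came to 13270.5 CPM in pup 1 and 12852 CPM in pup 2, more than the printed leukocyte sum in either pup. The leukocyte sums are thus not to be ranked against those of the other lists. Reads at several loci are on no gene, and shared sequence was not searched for the genes of these lists. The other sums may therefore be too low as well.

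The endothelial Mir126a was abundant in newborn liver, Mir139 stood about an order of magnitude below it, and the pair Mir221 and Mir222 lay far lower again. Mir126a had 225819 reads in pup 1 and 313943 in pup 2, or 65978 CPM (65716 to 66242) and 69174 CPM (68941 to 69408). Its mean was 67576 ± 2260 CPM, and it ranked 2 of 1973 genes in each pup. Mir139 had 19555 and 25088 reads, or 5713 CPM (5634 to 5794) in pup 1 and 5528 CPM (5460 to 5597) in pup 2. Its mean of 5621 ± 131 CPM put it at rank 30 in both pups. Both genes thus held nearly the same place in the order of either liver.

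Mir221 had 1048 reads in pup 1 and 1501 in pup 2, or 306 CPM (288 to 325) and 331 CPM (314 to 348), with a mean of 318 ± 17.3 CPM. It ranked 129 in pup 1 and 126 in pup 2. Mir222 had 561 and 672 reads, or 164 CPM (151 to 178) and 148 CPM (137 to 160), a mean of 156 ± 11.2 CPM, and ranked 155 and 161. Together the cluster came to 470 CPM in pup 1 and 479 CPM in pup 2. No 2 of these genes had overlapping values, and the order Mir126a, Mir139, Mir221, Mir222 was the same in both livers. These are bulk libraries, in which fewer cells of a type and less microRNA per cell cannot be told apart.

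**Figure D1:**
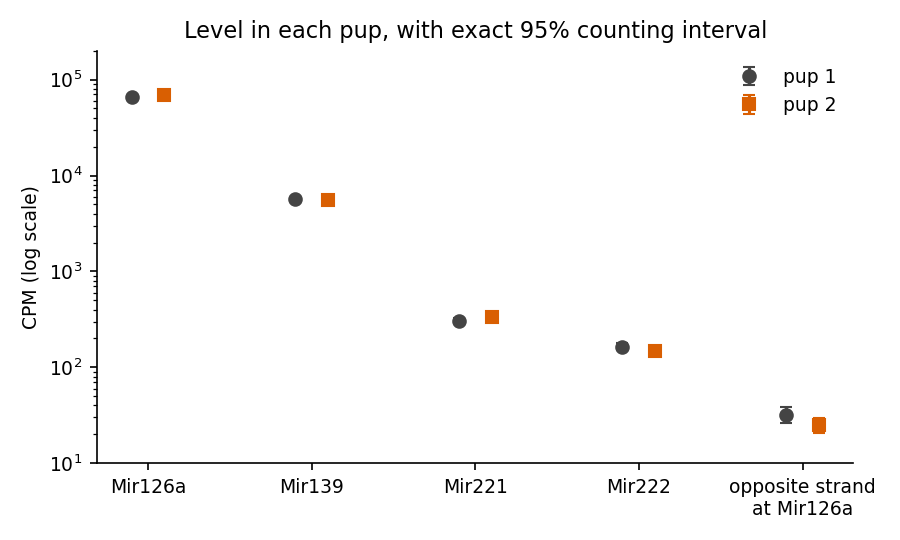
Level of each gene, and of the opposite strand at Mir126a, in pup 1 (circles) and pup 2 (squares), in CPM on a log scale, with exact 95% counting intervals. Mir126a lies near 67576 CPM, Mir139 near 5621, Mir221 near 318 and Mir222 near 156, and the pups lie close together for each gene.

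The 4 genes with an entry held 7.22% of the reads counted on microRNA genes in pup 1 and 7.52% in pup 2. Mir126a made up 91.4% and 92.0% of that share. Without Mir126a the share was 0.618% and 0.601%. Ratios taken within a library do not depend on its depth. The Mir126a count was 11.5 times the Mir139 count in pup 1 and 12.5 times in pup 2, a mean of 12.0 ± 0.683. Against Mir221 it was 215 and 209 times as high, and against Mir222 it was 403 and 467 times as high. Mir139 stood 18.7 and 16.7 times above Mir221, and 34.9 and 37.3 times above Mir222. Each of these gaps was many times the spread between the pups. Mir143, the most abundant gene of the smooth muscle and stellate list, was a further reference point. The Mir126a count was 4.77 and 4.73 times that of Mir143, a mean of 4.75 ± 0.0265.

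The neighbours in the order show how far each rank was resolved. Mir126a was separated from the gene above it, Mir122, the main hepatocyte microRNA at 348624 ± 8931 CPM. It was also separated from the genes below it, Mirlet7g at 41287 ± 223 CPM and Mir26b at 39047 ± 2984 CPM. Separated means that no value of one gene fell within the range of the other, and that the means differed by more than both SDs added. Mir139 was separated from Mirlet7d (6653 ± 403 CPM) and Mir369 (6561 ± 348 CPM) above it, and from Mir30d (4625 ± 404 CPM) and Mir429 (4491 ± 130 CPM) below it. Its rank counts only genes with an entry. Mir142, Mir376a, Mir409 and Mir378a have none, and the reads at their places lay above the Mir139 level. No such gene lay above Mir126a. A further limit holds for every rank given here. Multi-mapping sequences were left uncounted, and shared sequence was not searched for the neighbouring genes. Genes with near-identical copies may thus be counted too low. Whether any of them would stand above Mir126a or Mir139 is not known, so the ranks describe the order as counted.

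Lower in the order the ranks were not resolved. The Mir221 level could not be told from Mir200a (325 ± 15.2 CPM), Mir410 (324 ± 5.51 CPM) or Mir181d (288 ± 25.3 CPM), and was separated from Mir874 (269 ± 3.58 CPM). Mir222 could not be told from Mir675 (160 ± 0.153 CPM), Mirlet7a-1 (159 ± 29.9 CPM), Mir10b (153 ± 26.4 CPM) or Mir92-2 (144 ± 9.88 CPM). With 2 libraries, closeness in mean level is the measure of likeness used here, and it says nothing of a shared pattern across conditions.

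**Figure D2:**
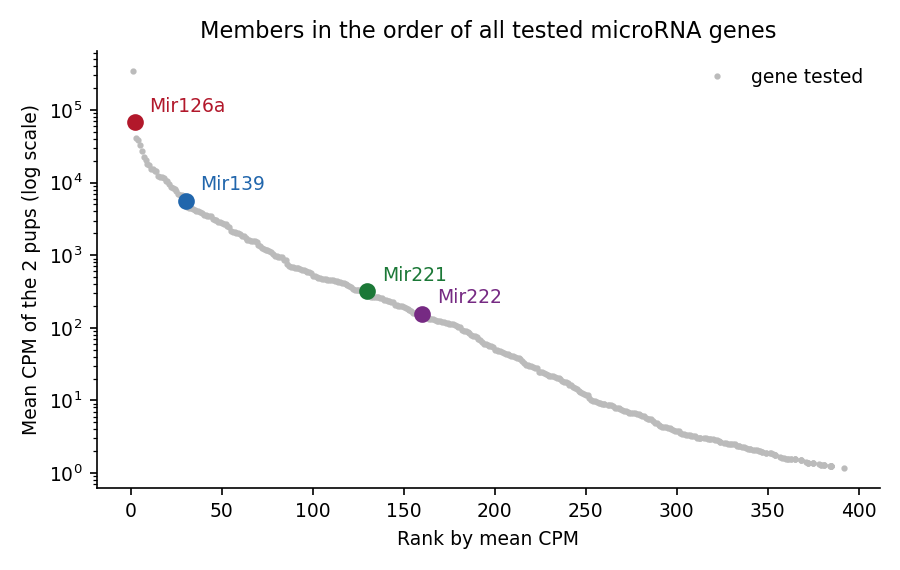
Mean CPM of the 2 pups (log scale) against rank for the 390 genes with at least 10 reads over both libraries, with the 4 genes marked. Mir126a lies at rank 2, Mir139 at 30, Mir221 at 130 and Mir222 at 160.

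The strand opposite to Mir126a carried a small number of reads, at the place of Mir126b. There were 109 in pup 1 and 113 in pup 2, or 31.8 CPM (26.1 to 38.4) and 24.9 CPM (20.5 to 29.9), a mean of 28.4 ± 4.91 CPM. A level of 28.4 CPM is below that of 221 genes with an entry. The Mir126a strand carried 2072 reads for each opposite-strand read in pup 1 and 2778 in pup 2. As a share of the reads on both strands, the opposite strand held 0.0482% (0.0396 to 0.0582) in pup 1 and 0.0360% (0.0297 to 0.0433) in pup 2. The intervals overlap, and Fisher's exact test of strand by pup, two-sided, gave p = 0.0295. The opposite-strand level itself differed between the pups by less than counting error could show, with a log2 ratio of -0.36 (-0.75 to 0.04) and an exact two-sided binomial p = 0.0675. Mir139, Mir221 and Mir222 had 0 opposite-strand reads in both pups. For Mir139 this allows a share of up to 0.0153% in pup 1 and 0.0120% in pup 2. For Mir221 it allows 0.286% and 0.200%, and for Mir222 0.535% and 0.446%, so at the depth of that pair a share as small as the one at Mir126a was not detectable.

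Opposite-strand reads were uncommon at other microRNA genes. Of the 221 genes with at least 100 reads in both libraries, 194 had none in either, and 27 had at least 1. Among those 27, Mir203 was the only gene with more opposite-strand reads than Mir126a. By share, 13 genes lay above Mir126a, whose share over both pups was 0.0411%. The annotation lists 32 cases like Mir126b, in which a microRNA gene without an entry overlaps one with an entry on the other strand. Opposite-strand reads were found in 25 of these, and Mir126b ranked 11 of 32 by their level. Its neighbour in that order was Mir24-1, at the place of Mir3074-1, with 29.2 and 23.8 CPM. In 13 of the 25 the opposite strand carried fewer reads than the strand of the gene with an entry, as at Mir126a. Elsewhere it carried more, as for Mir142, with 45420 and 58328 opposite-strand reads against 0 on the strand of Mir142b. The length and the ends of the reads are not in these files, so reads that are mature miR-126b and other fragments of that strand cannot be told apart here.

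**Figure D3:**
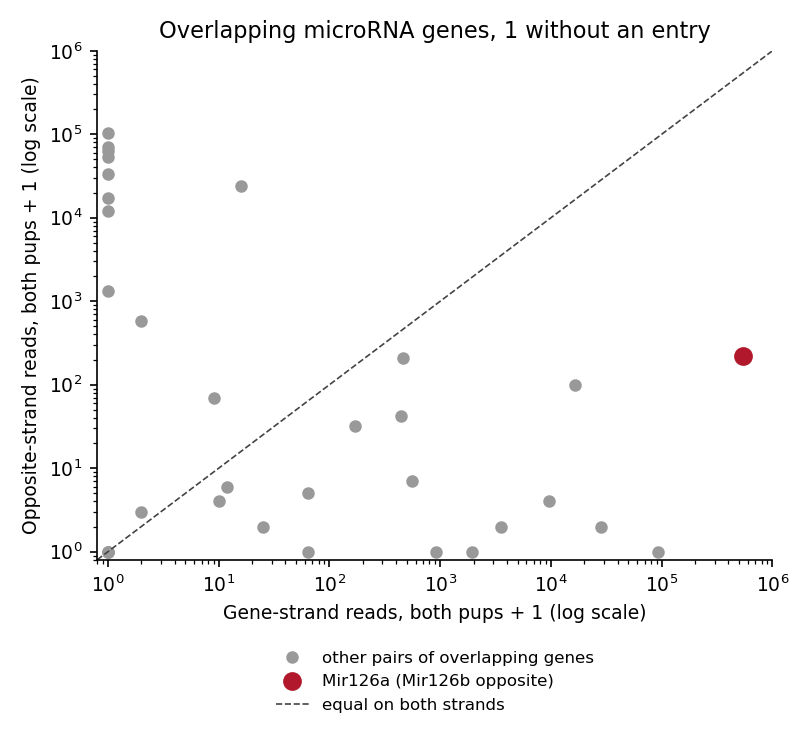
Reads summed over both pups, plus 1, on the strand of the gene with an entry (x axis, log scale) and on the opposite strand, where the gene without an entry lies (y axis, log scale), for 32 pairs of overlapping microRNA genes; the dashed line marks equal counts. Mir126a is the point farthest to the right and lies far below the line, with 109 and 113 opposite-strand reads in the pups.

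Mir221 and Mir222 lie next to each other and are known to come from a common primary transcript, yet Mir221 was counted about 2 times as often. The ratio of Mir221 to Mir222 was 1.87 in pup 1 and 2.23 in pup 2, a mean of 2.05 ± 0.258, with Mir221 higher in 2 of 2 pups. Larger gaps were common among neighbours as counted. There were 85 pairs of adjacent hairpins on the same strand with at most 10000 bases between them and at least 100 reads for both in both libraries. Hairpins with fewer reads were passed over, so some pairs have a weakly counted hairpin between them. Their mean ratio of the higher to the lower count ran from 1.06 to 439, with a median of 4.44, and 22 pairs had a smaller ratio than Mir221 and Mir222. Ligation and capture can differ from one microRNA to another, and the counts carry no correction for it. Reads at several loci are on no gene, which can widen the ratio where a hairpin of a pair shares sequence with another gene. Shared sequence was not searched for the other pairs, so they are not a like-for-like background for Mir221 and Mir222.

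**Figure D4:**
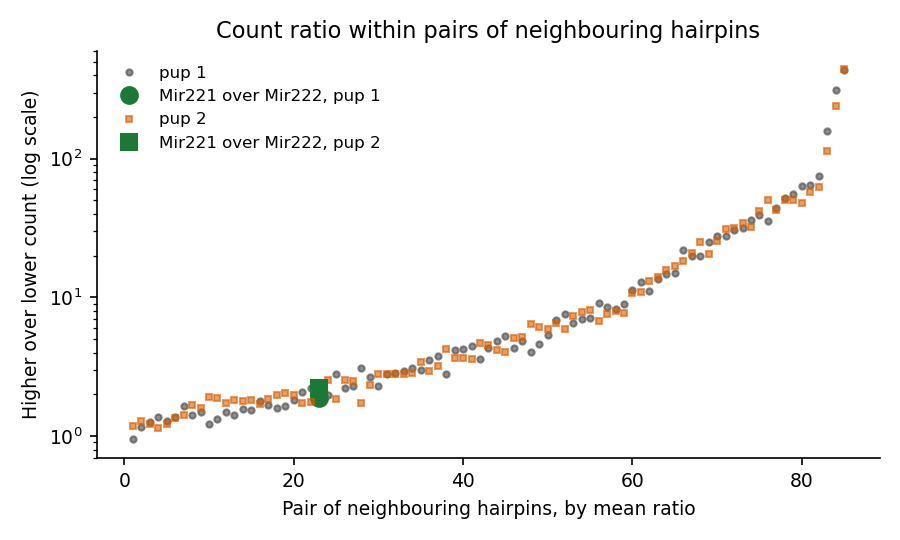
Ratio of the higher to the lower count (log scale) in 85 pairs of adjacent hairpins, ordered by their mean ratio, in pup 1 (circles) and pup 2 (squares). The ratio of Mir221 to Mir222, 1.87 and 2.23, lies in the lower part of the range, below the median of 4.44.

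Gene by gene, the livers differed little for these microRNAs. Mir126a was slightly higher in pup 2, Mir139 was slightly lower, and Mir221 and Mir222 did not pass the test; the call for Mir139 depended on the library total used. The test was a two-sided exact binomial test on each gene's reads, with Benjamini-Hochberg adjustment at 0.05 over the 390 genes with at least 10 reads over both libraries. It compares these libraries and not conditions, and it called 118 genes, or 30.3% of those tested. The Mir126a level in pup 2 was 1.05 times that in pup 1, a log2 ratio of 0.07 (0.06 to 0.08, adjusted p = 1.21e-64 in the exact binomial test). Mir139 had a log2 ratio of -0.05 (-0.07 to -0.02, adjusted p = 0.00243 in the exact binomial test). With Mir122 left out of the library totals the Mir139 log2 ratio was -0.02 and was not called (adjusted p = 0.318, exact binomial test). Both genes are deeply counted, so their intervals are narrow. Mir221 had a log2 ratio of 0.11 (0.00 to 0.23, adjusted p = 0.159) and Mir222 one of -0.15 (-0.31 to 0.02, adjusted p = 0.203), by the same exact test. The interval for Mir221 reaches just below 0.

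A second test, edgeR's negative binomial exact test with a common dispersion, treats the spread between the pups as noise. In it, Mir126a, Mir139, Mir221 and Mir222 each had an adjusted p of 1. That test called 2 of the 390 genes, or 0.513%, and neither was one of these. Its dispersion was estimated from the same 2 libraries and corresponds to a biological coefficient of variation of 0.130. Beside other genes of good depth, the differences of Mir126a and Mir139 were smaller than most. That of Mir221 lay just below the median and that of Mir222 above it. For the 221 genes with at least 100 reads in both libraries, the log2 ratio had a median size of 0.12. The difference of Mir139 was larger than that of 47 of these genes, that of Mir126a larger than 66, that of Mir221 larger than 99 and that of Mir222 larger than 126.

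**Figure D5:**
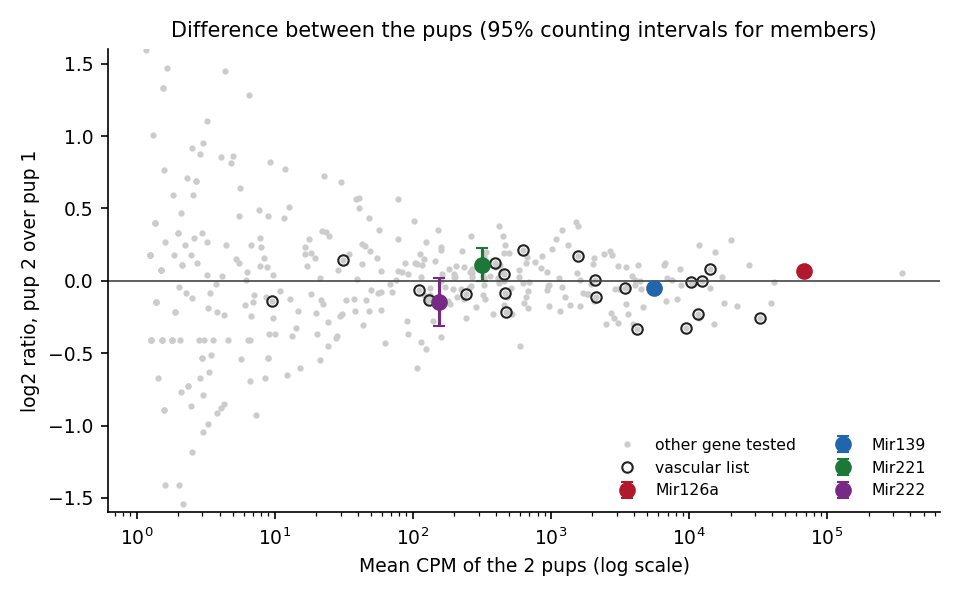
Log2 ratio of pup 2 over pup 1 against mean CPM (log scale) for the genes tested, with the 4 genes in colour and their exact 95% counting intervals, and the other genes of the vascular list as open circles. The 4 genes lie between -0.15 and 0.11; 10 genes beyond 1.6 in either direction are not drawn, of which Mir206 alone had at least 100 reads in both libraries.

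Ratios between the genes were compared between the pups by Fisher's exact test, two-sided, for all 6 pairs, with adjustment over these. Of these pairs, 4 differed by more than counting error. The ratio of Mir126a to Mir139 was 1.08 times as high in pup 2 (adjusted p = 4.10e-15), and that of Mir126a to Mir222 1.16 times as high (adjusted p = 0.0173). The ratio of Mir221 to Mir222 was 1.20 times as high in pup 2, also with adjusted p = 0.0173. The ratio of Mir139 to Mir221 in pup 2 was 0.896 times that in pup 1, with the same adjusted p. For Mir126a to Mir221 and for Mir139 to Mir222 the adjusted p was 0.469 and 0.293. The shift of 0.26 on the log2 scale between Mir221 and Mir222 was exceeded by 28 of the 85 pairs of adjacent hairpins, whose median shift was 0.20. These tests know counting error only, and 1 library per pup gives no measure of technical repeats.

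Genes with published roles in vessels were taken as a list of 29, including these 5. They regulate endothelial growth (the Mir23, Mir27 and Mir24 genes and the Mir17 cluster), the response to low oxygen (Mir210) or the state of smooth muscle (Mir143, Mir145a). Of the 29, 27 have an entry, and 25 had at least 10 reads in both libraries. Mir126a was the highest of the list, followed by Mir21a at 32837 ± 4096 CPM, Mir143 at 14225 ± 555 CPM, Mir23b at 12519 ± 9.45 CPM and Mir130a at 11637 ± 1297 CPM. Mir23a (10381 ± 55.6 CPM) and Mir17 (9573 ± 1516 CPM) also stood above Mir139. Mir221 was below 18 genes of the list and Mir222 below 20. The low-oxygen gene Mir210 had 468 ± 18.5 CPM, between Mir139 and Mir221, and Mir27a, the partner of Mir23a, had 391 ± 23.3 CPM. At the bottom were Mir218-1 and Mir218-2, each with 2 and 4 reads. Shared sequence was searched only for Mir126a, Mir126b, Mir221, Mir222 and Mir139. Reads at several loci are on no gene, so the levels of other genes of the list, and its sum, may be too low. The list held 18.5% of the reads in pup 1 and 17.8% in pup 2, of which Mir126a made up 35.7% and 38.9%. Several of these genes are not specific to vessels, Mir21a and the Mir17 cluster among them, so the sum is not a measure of vascular RNA.

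Between the pups, 12 of the 25 genes of the list that were tested passed the exact binomial test, 4 higher in pup 2 (15.9% of all tested genes were) and 8 lower (14.4% of all). The share of 48% compares with 30.3% of all genes tested and, with the same adjustment, 48.9% of genes with at least 100 reads in both libraries. The higher genes were Mir126a, Mir27b, Mir100 and Mir143. The lower ones were Mir139, Mir10a, Mir18a, Mir296, Mir130a, Mir21a, Mir17 and Mir20a. The median log2 ratio of the list was -0.05, against 0.00 for all genes tested. Mir143 had a log2 ratio of 0.08, close to the 0.07 of Mir126a. Mir21a, at -0.26, and Mir17, at -0.32, moved further. edgeR's negative binomial exact test called 0 of the 25, and 12 of the 390 genes had an unadjusted p under 0.05 in it.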

How the data were processed

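MicroRNA sequencing of total RNA (inserts below 30 bases) from 2 livers was used. The authors deposited raw read counts per microRNA gene, on assembly mm10 with GENCODE M4 annotation, per the text files the authors deposited beside them. For the aligner and the counter, names are not given in the sources used. The files have no header. Their columns were read, in order, as counts without regard to strand, on the gene strand and on the opposite strand. For each gene the first is the sum of the other 2. Gene-strand reads numbered 3422622 in pup 1 and 4538427 in pup 2, and opposite-strand reads 166702 and 213909. Gene-strand counts were the main values. Uniquely mapped reads not counted on the gene strand of a microRNA gene (8.87% and 9.92% of unique reads) stayed out of library sizes. Reads at several loci (25.2% and 24.7% of all reads) are on no gene.

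GENCODE M21, also on mm10, gave symbols, coordinates and host genes (1894 of 1973 identifiers matched, the other 79 had 0 reads), and sequences from RefSeq (GRCm38.p6). CPM, exact binomial and Fisher tests used Python 3.11.15 with scipy 1.17.1; alternatives used edgeR 4.0.16 and DESeq2 1.42.0, and folding RNAfold 2.7.2. A quasi-likelihood test was not possible without a second group. An exact sign-flip test over 2 pups cannot go below p = 0.5 and was not run. The exact binomial test was tested on simulated data. The limit for a count of 0 is 3 reads.

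Members and lists were chosen with earlier results of these data known. Named genes were the members, the 2 genes on either side of each by mean CPM, genes of the vascular list above Mir222, and hosts. Mir203, Mir142, Mir376a, Mir409, Mir378a, Mir24-1, Mir206, Mir218-1 and Mir218-2 were named after their values were seen. The tests of ratios between pups, of strand by pup and of the opposite-strand level, and the comparison of adjacent hairpins, were also added after the data were seen.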

Additional observations from a re-analysis of the deposited data

How the results depend on the processing

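Of 57 alternative values for 16 results, each pup alone left aside, 37 stayed the same, 17 moved further, 3 lost the call and 0 reversed. A difference stayed the same if it kept its direction and side of the threshold, a level, ratio or share if it moved by less than the SD. For a count of called genes, the same means within a fixed fold of the main count. Levels follow the denominator. Without regard to strand, the Mir126a mean was 64515 CPM, the Mir139 mean 5364 CPM and the share of the 4 genes 7.03%. Per 1000000 uniquely mapped reads, the means were 61218 (Mir126a), 5093 (Mir139), 288 (Mir221) and 141 (Mir222). With Mir122 left out of the total they were 103778, 8628, 489 and 239, and the share was 11.3%. Per base of hairpin, the ratio was 0.591 for Mir222 to Mir221 (0.492 as counted), 11.2 for Mir126a to Mir139 (12.0) and 0.0406 for Mir221 to Mir139 (0.0567). The Mir139 difference between pups kept its call in 4 alternatives (adjusted p 0.000285 to 0.00664, exact binomial test) and lost it without Mir122 (log2 ratio -0.0197, adjusted p = 0.318). By edgeR's negative binomial exact test, the log2 ratios of 0.0682 for Mir126a and -0.0476 for Mir139 were not called, and 2 genes in all and 0 of the vascular list were, in place of 118 and 12. The other alternatives gave 112 to 123 genes in all. For the list, TMM, DESeq2 size factors and no filter on low counts were run, and each gave 12.

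No paired analysis was possible because the 2 libraries form a single group. Each pup alone gave the values printed for it: 65978 and 69174 CPM for Mir126a, and 31.8 and 24.9 CPM for the strand opposite it. With 2 pups, a single pup always lies within 1 SD of the mean, so these values say nothing of stability. Counting error is widest for the values with few reads, such as the strand opposite to Mir126a (109 and 113) and Mir222 (561 and 672).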
